A study of Mus musculus with 35 samples.

Results

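The subject is a set of genomic regions with acetylation of histone H3 at lysine 27 (H3K27ac). Each carried it in every H3K27ac library of fibroblasts, of their reprogramming time course and of a separate embryonic stem cell line. All peaks of the 12 H3K27ac lists on chromosomes 1 to 19 and X were merged wherever they shared at least 1 bp, and a merged region was kept when each of the 12 lists had a peak in it. The members were thus chosen by the acetylation lists themselves, so everything said of their acetylation is a description. Of 179334 merged regions 8242 were kept, or 4.60%, and they made up 27.6 Mb of 180 Mb (15.3% of the merged length).

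Mouse embryonic fibroblasts (MEF, strain C57BL/6 x 129) came from reprogrammable mice with a polycistronic OKSM cassette, which codes for OCT4, KLF4, SOX2 and MYC, at Col1a1 and the doxycycline-dependent activator M2rtTA at ROSA26. Cells taken as MEF had no doxycycline, and the DAY3, DAY6 and DAY9 cells of the same genotype were kept in ESC medium that also held doxycycline at 1 µg/ml and ascorbic acid at 50 µg/ml. DAY3 cells were unsorted and DAY6 and DAY9 cells were sorted for SSEA+, a surface marker of cells on the way to pluripotency, so that stage and sorting change together after DAY3. ESC were the V6.5 line (labelled C57BL/6 x 129, with genotype V6.5) in ESC medium with serum and LIF on irradiated feeder cells, and ESC_2I were V6.5 cells with a MEK inhibitor (1 µM) and a GSK3 inhibitor (3 µM) as well. H3K27ac had 2 MEF, 3 DAY3, 3 DAY6, 2 DAY9 and 2 ESC libraries, and KLF4, mapped by the same chromatin immunoprecipitation and sequencing assay, had 2 each of DAY3, DAY6, DAY9, ESC and ESC_2I. KLF4 from the cassette and from the gene of the cell cannot be told apart in DAY3, DAY6 and DAY9. The code in the title of a library, such as EA-3702 or DG-3458, is taken here as its batch. What the code stands for is not known. Nothing in the labels says that libraries of a stage came from separate mice or cultures, so p-values measure only the spread between libraries, which may be technical.

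H3K27ac is laid down by the acetyltransferases p300 and CBP and marks promoters and enhancers that are active. Promoters of genes that all cells need usually lie in CpG islands and carry the mark in most cell types, whereas enhancers and promoters of lineage genes gain and lose it as cells change identity. KLF4 is a zinc finger factor that binds GC-rich and CACCC sequences, shares much of its binding preference with the SP factors, and is one of the induced reprogramming factors.

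The promoters of 6 highly acetylated members are shown first, because they show how sequence varies among regions that all carry the mark and differ in KLF4. The Ino80 and Ppp2ca regions had a KLF4 peak in all 10 KLF4 lists, the Dnajb4 region in 5, and the Flcn, Ppp4r3b and Rbm26 regions in none. Ino80 codes for the ATPase of a chromatin remodelling complex, Ppp2ca for the catalytic subunit of protein phosphatase 2A, Dnajb4 for a cochaperone of HSP70, Flcn for folliculin, a regulator of nutrient signalling, Ppp4r3b for a regulatory subunit of protein phosphatase 4, and Rbm26 for an RNA-binding protein. Each line gives the 250 bases before the start, 5′ to 3′ on the strand of the gene, from RefSeq (GRCm38.p6). Capitals mark GC boxes (GGGCGG on either strand) and CCAAT boxes (CCAAT on either strand). The positions are chr2:119477688-119477937 (minus strand) for Ino80, chr11:52098574-52098823 (plus) for Ppp2ca, chr3:152210084-152210333 (minus) for Dnajb4, chr11:59810040-59810289 (minus) for Flcn, chr11:29172726-29172975 (plus) for Ppp4r3b and chr14:105177315-105177564 (minus) for Rbm26.
Ino80: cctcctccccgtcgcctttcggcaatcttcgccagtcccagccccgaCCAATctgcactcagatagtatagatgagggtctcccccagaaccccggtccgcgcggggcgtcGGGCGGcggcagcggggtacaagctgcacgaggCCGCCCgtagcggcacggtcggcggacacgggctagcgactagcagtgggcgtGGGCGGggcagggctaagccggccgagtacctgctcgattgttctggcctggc
Ppp2ca: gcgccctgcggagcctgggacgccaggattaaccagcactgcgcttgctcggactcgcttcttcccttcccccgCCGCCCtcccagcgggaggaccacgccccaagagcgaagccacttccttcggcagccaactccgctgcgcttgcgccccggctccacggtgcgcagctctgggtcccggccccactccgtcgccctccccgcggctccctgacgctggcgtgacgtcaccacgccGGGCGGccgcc
Dnajb4: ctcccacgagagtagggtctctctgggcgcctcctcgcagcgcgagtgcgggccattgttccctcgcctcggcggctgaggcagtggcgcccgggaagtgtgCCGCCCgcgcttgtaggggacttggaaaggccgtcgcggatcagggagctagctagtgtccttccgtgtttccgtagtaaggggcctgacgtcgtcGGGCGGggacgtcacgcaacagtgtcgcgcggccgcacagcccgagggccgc
Flcn: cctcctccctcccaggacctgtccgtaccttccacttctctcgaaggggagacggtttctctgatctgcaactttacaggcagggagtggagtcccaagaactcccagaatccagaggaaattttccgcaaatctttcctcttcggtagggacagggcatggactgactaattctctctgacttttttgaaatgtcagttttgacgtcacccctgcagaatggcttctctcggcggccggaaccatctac
Ppp4r3b: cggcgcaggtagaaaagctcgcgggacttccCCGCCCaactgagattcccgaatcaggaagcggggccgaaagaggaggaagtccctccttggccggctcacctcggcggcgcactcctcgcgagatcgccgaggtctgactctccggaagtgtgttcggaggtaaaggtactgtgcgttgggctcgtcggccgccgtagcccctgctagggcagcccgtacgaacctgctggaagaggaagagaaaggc
Rbm26: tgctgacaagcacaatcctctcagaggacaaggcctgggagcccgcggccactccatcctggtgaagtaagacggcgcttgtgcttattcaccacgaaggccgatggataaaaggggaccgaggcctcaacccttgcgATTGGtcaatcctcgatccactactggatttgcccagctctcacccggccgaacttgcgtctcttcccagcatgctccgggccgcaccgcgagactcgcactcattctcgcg
The Ino80 sequence holds 3 GC boxes and 1 CCAAT box, Ppp2ca and Dnajb4 hold 2 GC boxes each, Ppp4r3b holds 1, Rbm26 holds no GC box and 1 CCAAT box, and Flcn holds neither. A match is a description of the letters and not a bound site.

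The 8242 regions were wide and most held a gene start. Their median width was 2654 bp (25th to 75th percentile 1998 to 3799 bp, range 524 to 37343 bp) against 513 bp for the other merged regions. A protein-coding gene start lay inside 6928 of them (84.1%), where 7.16% of all merged regions and 3.46% of the other regions held a start. The share rose with the number of lists in which a region was found, from 0.411% of the 69351 regions found in a single list to 36.4% of those found in 10. In 6857 of the 6928 (99.0%) each of the 12 lists had a peak within 1 kb of the same start. For 4354 genes without a promoter entry either end of the gene counted as a start. Some of these shared peaks may thus lie at the far end of a gene and not at its promoter. With only genes of known strand, 70.6% of members held a start. A base covered by all 12 lists existed in 7738 members (93.9%), with a median longest common stretch of 457 bp. The remaining 504 were joined through peaks that do not all meet, so a wide region can be shared without a single base that every list covers.

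**Figure D1:**
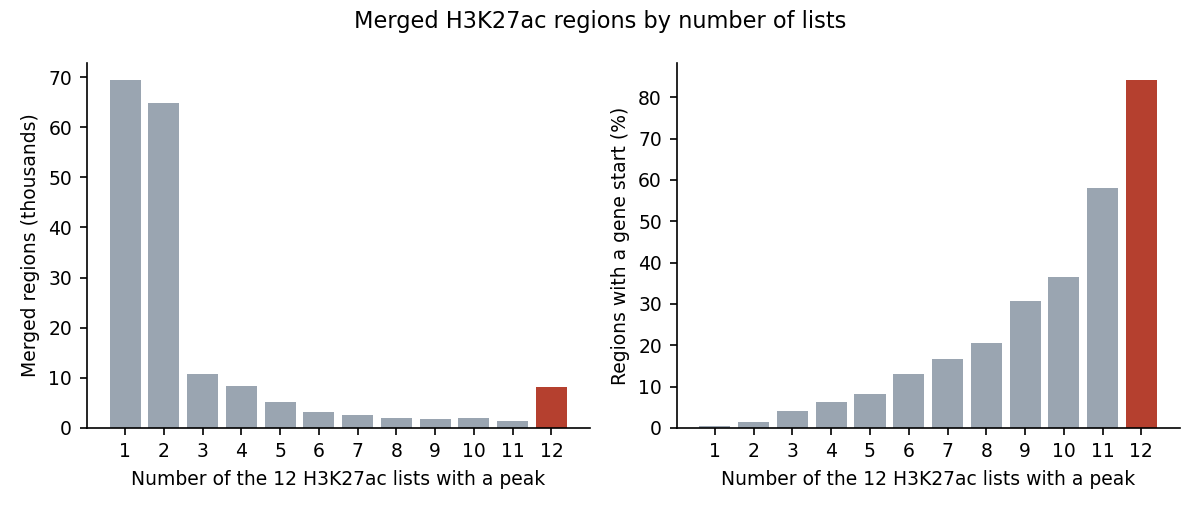
Left, number of merged H3K27ac regions by the number of the 12 lists with a peak in them; right, percent of those regions with a protein-coding gene start inside. Red bars are the 8242 regions found in all 12 lists, of which 84.1% hold a gene start, against 58.1% of the regions found in 11 lists.

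Just outside the threshold stood 1412 regions with a peak in 11 of the 12 lists. They were 2221 bp wide at the median, 58.1% held a gene start, and the median percentile of their best peak was 71.4 against 87.9 for members. The missing list was a DAY6 list of batch DG-3458 in most of them: 555 (39.3%) lacked only the second and 334 (23.7%) only the first of these. The peak names inside these 2 lists carry each other's replicate number, so first and second follow the deposited sample records here and may be exchanged. No such region lacked only the second DAY9 library. These 2 DAY6 lists were also the shortest, with 17493 and 20783 peaks on the chromosomes used, where MEF and ESC lists had 81231 to 88347. Without both, the same rule gave 9715 regions, of which 79.4% held a gene start.

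Protein-coding genes with a start in a member numbered 7872 of 21627, or 36.4%. The share ran from 28.2% on chromosome 7 to 45.9% on chromosome 12 among autosomes and was 15.5% on the X chromosome (150 of 966 genes). Starts of 2 genes lay in 966 members and of 3 or more in 36. Among the 753 members with starts of at least 2 genes of known strand, 716 had starts on both strands, as where neighbouring genes run in opposite directions. The Dnajb4 and Fubp1 region is of this kind. Some large gene families of specialised cells were absent from the members: 0 of 1110 olfactory receptor genes (Olfr), 0 of 355 vomeronasal receptor genes and 0 of 53 keratin genes had a start there. In contrast, 217 of 397 Zfp genes (54.7%), which code for zinc finger proteins, and 61 of 78 mitochondrial ribosomal protein genes (78.2%) did. A count of 0 here says that no start had a region shared by all 12 lists, not that acetylation was absent.

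Genes of the basic machinery of the cell were nearly complete among the members, against 36.4% of all genes. All 28 listed chaperone genes had their start in a member, and so did 40 of 42 splicing genes, 75 of 79 genes of the cytosolic ribosome, 32 of 34 translation factors, 28 of 30 cytoskeleton genes, 24 of 26 chromatin genes (enzymes, cofactors and readers of H3K27 acetylation and enzymes of H3K27 and H3K4 methylation), 27 of 31 proteasome genes, 39 of 46 genes of the respiratory chain and ATP synthase, and 33 of 40 genes of RNA polymerase II and its general factors. Several genes fell short by a single list: Rpl39, Psma1, Psmb6, Psmc4, Polr2i, Polr2j, Sf3b2 and Snrpd2 each lay in a region found in 11 lists. Of the 4 ribosomal protein genes outside the members, Rpl39, Rps4x and Rpl36a are X-linked, and the listed start of Rpl36a lay outside any region although 11 lists had a peak within 1 kb. Lists of genes restricted to liver, neurons, blood or muscle, with 20 genes each, had 0 genes in members. Within the members the machinery genes spanned a wide range of acetylation but stood mostly above the middle. Ordered by the mean over the 5 stages of the percentile of a region's best peak within its list, with 1 the highest, Srsf5 and Hnrnpf (splicing) were at 13 and 18, Eif5 (translation) at 16, Brd2 and Ep300 (reader and writer of the mark) at 41 and 63, Hspa4 and Hspa8 (chaperones) at 46 and 71, and Rps14 and Rpl13a (ribosome) at 89 and 113. The lowest of their lists were Sf3a3 at 6479, Eif3l at 7908, Hdac1 at 6269, Pdia6 at 6039 and Rplp1 at 5291. Median places of the machinery lists ran from 656.5 (splicing) to 3459 (respiratory chain and ATP synthase) of 8242. The gene lists were drawn up with earlier results of these data known, so their counts describe the regions and are no independent test of them.

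Genes that respond to stimuli and genes of the cell cycle were also largely present. Of 25 immediate early and AP-1 genes 22 had a start in a member, among them Jun, Fos, Junb, Jund, Egr1 and Srf, and of 31 genes of the Myc network and cell cycle 26 did. Myc itself did not: its start lay in a region found in 10 lists. Of 25 Klf and Sp factor genes 15 were in members (60%), with Sp1, Sp2, Sp3 and Sp4 all inside and Klf12 and Klf17 without a peak within 1 kb in any library. Klf7 and Klf6 led this list, at 9 and 98 in the order.

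Identity genes of fibroblasts and of pluripotent cells were mostly absent, as were Hox genes. Of 30 pluripotency genes 5 had a start in a member (16.7%, below the 36.4% of all genes), namely Nanog, Klf2, Klf4, Klf5 and Cdh1. Of 39 fibroblast genes 8 did (20.5%): Fn1, Sparc, Twist1, Zeb1, Zeb2, Vim, Ccn2 and Runx1. Of 39 Hox genes 6 did (15.4%), among them Hoxa7, Hoxa9 and Hoxa10 in 1 region, and Hoxb2. For Cdh1, Klf5, Fn1, Zeb1, Ccn2 and Hoxb2, which have no promoter entry, either end of the gene counted as its start. Pou5f1 and Sox2, which code for core pluripotency factors, lay in regions found in 8 and 6 lists, and Col1a2 and Pdgfrb, typical of fibroblasts, in 5 each.

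At Nanog the region was shared but the start was not. Its region, chr6:122700742-122711767, is 11026 bp wide, and lists had a peak within 1 kb of the gene start in 6 of 12 libraries. In both MEF libraries the nearest peak was 3160 and 3257 bp from the start, in the 3 DAY3 libraries 2194 to 3074 bp, and in the DAY6 library of batch EA-3702 3297 bp. In the other 2 DAY6 libraries it lay at 0 and 306 bp, in DAY9 at 0 and 52 bp and in ESC at 22 and 0 bp. All MEF and DAY3 libraries thus had their nearest peak over 2 kb away, and all DAY9 and ESC libraries had it at or beside the start. Cdh1, which codes for the epithelial adhesion molecule E-cadherin, lay in a region of 22132 bp, and 8 lists had a peak within 1 kb of its start. Its nearest peak was 16012 and 16050 bp away in MEF, 16483, 34 and 16581 bp in DAY3, 78, 78 and 30 bp in DAY6, and at most 14 bp in DAY9 and ESC. In Cdh1, then, MEF and 2 of 3 DAY3 libraries had their peak far from the start.

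The check of the labels by defining genes used starts of known strand. Of 9 pluripotency markers 2 and 1 had a peak within 1 kb of the start in the MEF libraries, 3, 2 and 2 in DAY3, 2, 2 and 1 in DAY6, 8 in each DAY9 library and 9 in each ESC library. The sorted DAY6 libraries thus had 1 or 2 of these markers, as MEF had, but not the same ones. In MEF they were Sox2 with or without Tfcp2l1, and in DAY6 Fgf4 with or without Nanog. Of 7 fibroblast markers 7 had one in each MEF library, 5 or 6 in DAY3, 2 or 3 in DAY6, 3 in DAY9 and 3 and 2 in the ESC libraries, with Twist1 in every library. ESC were grown on irradiated feeder cells, and the part of feeders in the ESC peaks at Twist1 was not tested. Of the 2 loci that carry transgenes in the MEF line, Gt(ROSA)26Sor had an end in a member with KLF4 in all 10 lists (at 338 in the order). Col1a1 had none, and its 2 ends differed: the lower end by coordinate had a peak within 1 kb in 5 lists, those of MEF and DAY3, and the upper end in 10, all but those of MEF.

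**Figure D2:**
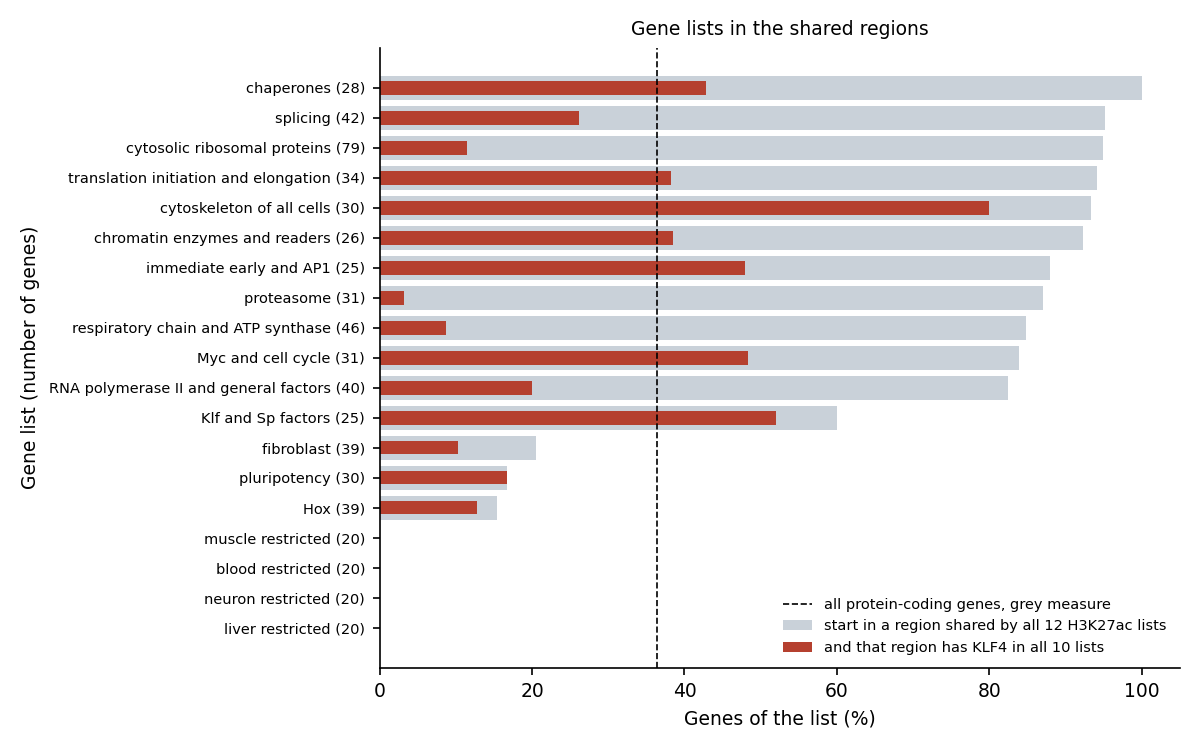
For each gene list, the percent of its genes with a start in a region shared by all 12 H3K27ac lists (grey) and the percent whose region also had a KLF4 peak in all 10 KLF4 lists (red); the dashed line is the 36.4% of all protein-coding genes. Machinery lists reach 82.5% to 100% in grey but differ widely in red, from the proteasome (1 of 31 genes) to the cytoskeleton (24 of 30 genes).

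The region highest in the acetylation order lay far from any protein-coding start and beside a let-7 cluster. In each library the 8242 members were ranked by the deposited score of their best peak, with rank 1 the highest. Region chr13:48544475-48551450, whose nearest protein-coding start is that of Zfp169 at 31039 bp, had ranks 2 and 1 in MEF, 2, 1 and 17 in DAY3, 37, 34 and 6 in DAY6, 17 and 24 in DAY9, and 2 and 8 in ESC. No library placed it below rank 37 of 8242. The hairpins of let-7a-1, let-7f-1 and let-7d, on the minus strand, begin 6203, 6558 and 8361 bp from its edge, so that the region lies upstream of them. The let-7 miRNAs share a seed (bases 2 to 8, in capitals) and are known for promoting differentiation. A second let-7 gene lay inside a member: Mirlet7i, at chr10:122985640-122985724 in a region of 4413 bp, with ranks from 20 to 1225 over the 12 libraries. The sequences, 5′ to 3′ from RefSeq, show the shared seed.
mmu-let-7a-5p: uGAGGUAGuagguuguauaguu
mmu-let-7f-5p: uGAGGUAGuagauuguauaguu
mmu-let-7d-5p: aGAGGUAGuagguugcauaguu
mmu-let-7i-5p: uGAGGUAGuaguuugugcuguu
mmu-let-7e-5p: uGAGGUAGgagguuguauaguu
All 5 carry the seed GAGGUAG. The Mirlet7e region held its hairpin as well but stood lower, with ranks 1775 and 1632 in MEF and 6802 and 6754 in ESC, and the ranks of the 8 libraries between lay between 2865 and 6773.

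In all, 85 of 1005 miRNA hairpins had their lower end by coordinate inside a member, in 81 members. Some, such as Mir6975, run past the edge of the region. Of the 81 members 34 had a KLF4 peak in all 10 lists and 3 in none. Over all members the shares were 31.9% and 5.07%, and over all merged regions 2.44% and 74.0%. Most of the 81 regions, 64, also held a protein-coding start, so acetylation there cannot be assigned to the hairpin. The following were picked after their values were seen, as well-studied miRNAs. Mir130a was in a region ranked 3 and 1 in ESC, 964 and 425 in MEF, 154, 90 and 107 in DAY3, 620, 773 and 995 in DAY6, and 1421 and 752 in DAY9. Mir21a, a miRNA abundant in fibroblasts, was in a region of 28921 bp ranked 293 and 190 in MEF, 430, 110 and 218 in DAY3, 2508 to 3681 in DAY6, 1795 and 2831 in DAY9, and 3486 and 3625 in ESC. The MEF and DAY3 libraries all stood above the DAY6, DAY9 and ESC libraries in this region. Mir22 had ranks 96 and 59 in MEF, 1855, 729 and 575 in DAY3, 1214, 1845 and 528 in DAY6, 148 and 80 in DAY9, and 169 and 78 in ESC, lower in DAY3 and DAY6 than in the other stages. KLF4 was in all 10 lists in its region. The Mir423 region, shared with the start of Nsrp1, had no KLF4 peak in any list. The mature strands of miR-130a, miR-21a and miR-22, shown because these hairpins lie in members without a protein-coding start, share no seed.
mmu-miR-130a-3p: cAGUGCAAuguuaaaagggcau
mmu-miR-21a-5p: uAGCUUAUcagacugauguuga
mmu-miR-22-3p: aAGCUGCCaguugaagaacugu

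The longest stretches covered by all 12 lists were found at Brd2 and H2-DMa (3356 bp), Anp32a (3172 bp), Arid1b (3016 bp), Zfp36l1 (2941 bp) and around Malat1 (2739 bp of a region of 26944 bp). Brd2 codes for a reader of acetylated histones, Arid1b for a subunit of BAF remodelling complexes, Zfp36l1 for a protein that destabilises mRNAs, and Malat1 for an abundant nuclear long noncoding RNA. All but Arid1b (5 lists) had KLF4 in all 10 lists.

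The other regions at the top of the order were mostly at or inside protein-coding genes. The Ino80 region, chr2:119475671-119479825, had ranks 61 and 27 in MEF, 19, 61 and 14 in DAY3, 21, 39 and 37 in DAY6, 18 and 14 in DAY9, and 22 and 30 in ESC. Its deposited fold enrichment, the authors' value per peak, was 63.9 and 68.2 in MEF, 16.3 to 22.5 in DAY6 and 51.4 and 43.3 in ESC, so that the fold fell and rose with the library while the rank stayed within 61. Dnajb4 and Fubp1 share a promoter region ranked between 6 and 149. Rbm39 and Clk1, which act in splicing, had ranks of 5 to 154 and 7 to 274, and Klf7 had 6 to 167. A region inside Ywhaz, coding for the adaptor 14-3-3 zeta, had ranks 15 and 11 in MEF, 32, 30 and 19 in DAY3, 219, 1 and 13 in DAY6, 4 and 1 in DAY9, and 140 and 167 in ESC. Its lowest rank, 219, and a rank of 1 were in DAY6 libraries of the same batch, and a DAY9 library had rank 1 as well. The Ywhaz region lies 7372 bp from the listed start, and regions inside Epc1 and Bicral lie 23571 and 30940 bp from theirs. Whether starts that are not listed lie there was not tested. Region chr8:19784029-19786175 ranked between 1 and 114 with KLF4 in all 10 lists, but its fold was modest (8.36 to 26.6). It lies 54453 bp from the nearest protein-coding start and holds the pseudogene Gm10060. Whether reads there map to a single place was not tested.

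Around the 7740 gene starts of known strand in members, acetylation was highest just downstream and KLF4 just upstream. H3K27ac peaks of MEF covered 98.1% of starts at 150 bp downstream, and those of DAY9 97.8% at the same place. Coverage was highest at 200 bp downstream in DAY3 (91.5%), DAY6 (86.6%) and ESC (95%). At the start itself it was 95.4% in MEF, 68.8% in DAY3, 59.5% in DAY6, 96.8% in DAY9 and 80.4% in ESC. These values are means over the 2 or 3 libraries of a stage, and libraries differed at the start from 57.1% to 84.8% in DAY3 and from 46.5% to 82.4% in DAY6. KLF4 coverage was highest 50 bp upstream in all 5 stages, at a mean of 44.7% in DAY3, 50.1% in DAY6, 45.9% in DAY9, 36.7% in ESC and 38.8% in ESC_2I. The 2 libraries behind each mean were at 28.4% and 61.1% in DAY3, 33.0% and 67.3% in DAY6, 43.4% and 48.4% in DAY9, 28.1% and 45.4% in ESC, and 31.1% and 46.6% in ESC_2I. In DAY3, DAY6, ESC and ESC_2I the libraries of a stage thus lay further apart than any 2 stage means.

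**Figure D3:**
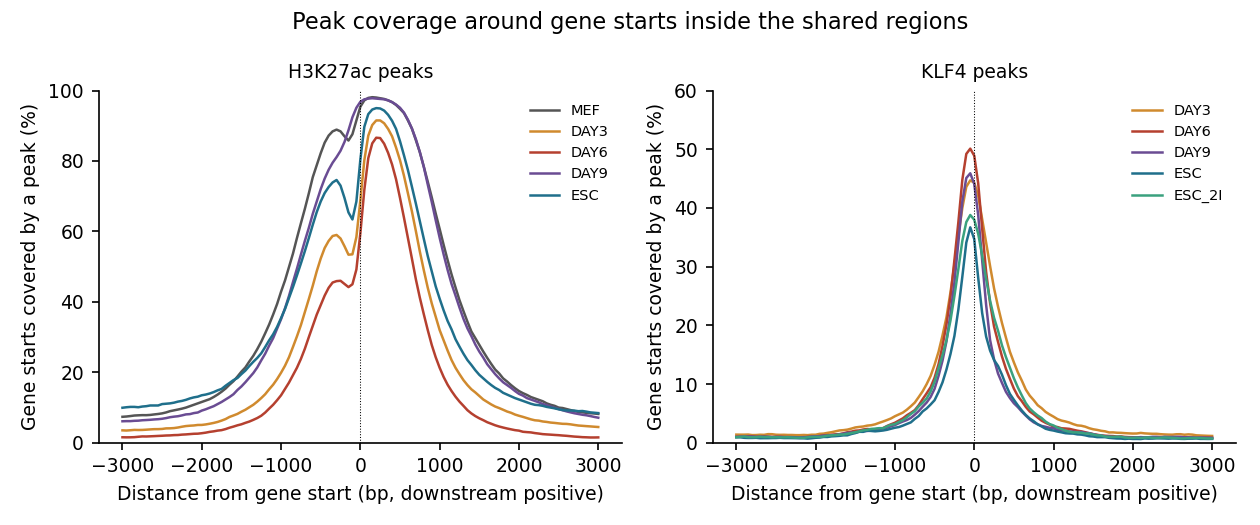
Percent of the 7740 gene starts of known strand in the shared regions that a peak covers, by distance from the start in bp (downstream positive), as the mean over the libraries of each stage; left H3K27ac, right KLF4, with different vertical scales. Acetylation is highest 150 to 200 bp downstream in every stage mean, with libraries of DAY6 between 46.5% and 82.4% at the start, and KLF4 is highest 50 bp upstream in all 5 stages.

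Starts in members were rich in CpG. In the window from 250 bases before to 50 bases after the start, the median was 24.0 CpG dinucleotides per 300 bases for the 7740 starts in members, 13 for all 21044 starts, 16.0 for starts in regions found in 1 to 11 lists and 3.00 for starts in no merged region. The GC box GGGCGG, a site of SP and KLF factors, was present on either strand at 70.6% of starts in members and 46.7% of all starts. The CACCC box was at 62.2% and 59.8%, and at 67.7% of starts in regions found in 1 to 11 lists. The ETS site CCGGAAG was at 21.7% against 11.7%, and the NRF1 site GCATGCGC at 6.55% against 3.54%. The TATA box TATAAA was rarer in members, at 5.61% against 12.7%, and the AP-1 site TGANTCA at 3.79% against 7.04%. The CCAAT box showed little difference (37.6% and 38.5%). The median GC content of the windows was 63.0% in members and 56.7% over all starts, and its part in the motif shares was not tested. Windows of neighbouring starts overlap.

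Starts in regions without KLF4 in any list were poorer in GC boxes and CpG. Where KLF4 peaks were in all 10 lists, 80.6% of 2530 starts held a GC box, the median was 26 CpG per 300 bases and the YY1 site AAGATGG was at 7%. Where no list had a KLF4 peak, 30.5% of 347 starts held a GC box, the median was 17 CpG, the YY1 site was at 15.6% and the ETS site at 31.4%. The CACCC box was at 69.6% and 43.8%, and the CCAAT box at 34.6% and 47.0%. The median GC content of the windows was 66.0% and 55.0%, and its part in these motif shares was not tested. The Flcn and Rbm26 promoters above, with no GC box, and the Ino80 promoter, with 3, are examples. Exceptions were Ppp4r3b, with 1 GC box and no KLF4 peak in any list, and Rbm39, both of whose listed starts had 0 GC boxes in the 250 bases before them although its region had KLF4 in 9 lists.

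The DAY6 lists, the shortest, had the largest share of their peaks in the shared regions, and the MEF lists, the longest, the smallest. Members took 12.8% and 12.6% of the peaks of the MEF libraries, 17.1% and 18% in ESC, 23.3% and 22.6% in DAY9, 26.7%, 30.2% and 37.4% in DAY3, and 65.1%, 73.3% and 49.5% in DAY6. Of the top 10% of a list by score, members held 61.5% to 63.2% in MEF and ESC and 97.6% to 99.0% in DAY6. The length of the members covered by peaks was 71.3% and 71.8% in MEF, 56.8%, 47.9% and 42.7% in DAY3, 29.6%, 27.6% and 46.6% in DAY6, 69.1% and 70.0% in DAY9, and 64.4% and 62.0% in ESC. Across batches the 3 DAY6 libraries overlapped with DAY3 in this measure, and all stood below MEF, DAY9 and ESC. Within batch EA-3702 the value was 56.8% in DAY3 and 46.6% in DAY6. Within DG-3458 it was 47.9% and 42.7% in DAY3 and 29.6% and 27.6% in DAY6. DAY6 was thus below DAY3 in each batch. All MEF and ESC libraries were of DG-3458 and both DAY9 libraries of EA-3702, so DAY9 and batch cannot be told apart against MEF or ESC. The median deposited fold of the best peak per member was 21.6 in both MEF libraries, 7.81 to 9.09 in DAY3, 5.93 to 6.99 in DAY6, 15.4 and 17.2 in DAY9, and 13.5 and 12.8 in ESC. Sequencing depth is unknown, so whether DAY6 regions were less acetylated or the DAY6 libraries shallower cannot be told apart, and in bulk cells fewer marked cells cannot be told apart from fewer marks per cell.

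The order of the members differed between stages although all were marked in each. The Spearman correlation of ranks across the 8242 members was 0.959 between the MEF libraries, 0.965 between those of DAY9 and 0.954 between those of ESC, and averaged 0.860 within DAY3 and 0.789 within DAY6. From MEF the mean correlation was 0.640 with DAY3, 0.493 with DAY6, 0.467 with DAY9 and 0.394 with ESC. DAY6 and DAY9 had a mean of 0.789, but the pairs that share batch EA-3702 were at 0.844 and 0.852 and the 4 pairs across batches at 0.753 to 0.765, below the pairs within DAY6 (0.785 to 0.792). DAY9 reached 0.602 with ESC. In every comparison of DAY9 acetylation with MEF or ESC, for single regions too, the stages were of different batches, so stage and batch cannot be told apart. Libraries of the same stage but different batches had a mean of 0.822 over 4 pairs, and libraries of different stages in the same batch 0.554 over 29 pairs. Members are not independent of each other, and these correlations share the depth of each library.

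**Figure D4:**
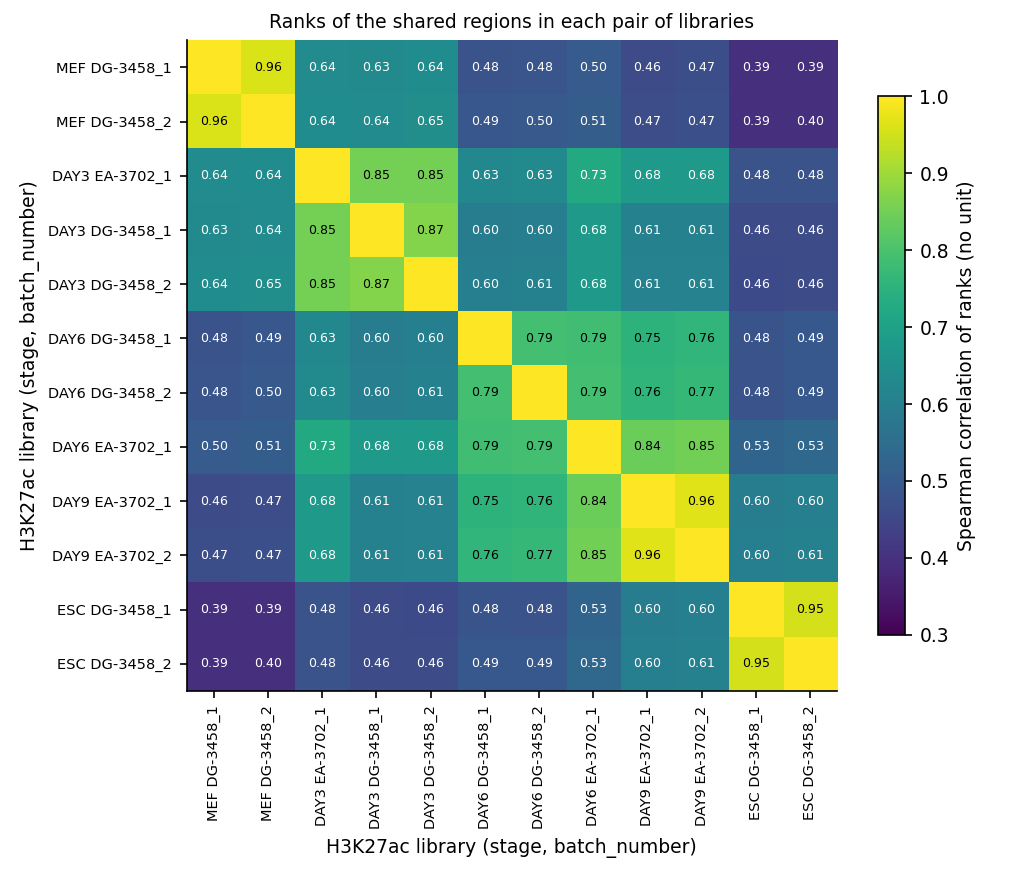
Spearman correlation of the ranks of the 8242 shared regions for each pair of the 12 H3K27ac libraries, labelled by stage, batch and number; brighter cells are higher. Pairs within a stage lie at 0.785 or above, and MEF with ESC lies lowest, at 0.393 to 0.396.

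Between MEF and ESC, percentiles that did not overlap were counted in each direction. Of the members 33.6% were higher in both ESC than in both MEF libraries and 48.8% were higher in MEF, where the shares over all 15876 regions present in both MEF and both ESC lists were 33.2% and 47.1%. The shares among members were thus near those of the background. The members with the largest rise included those at Mtcl1, Slc35g1, Mtln, Tmem51 and Cth, and those with the largest fall at Tmem9b, Zfp608, Aph1b, Zfhx4, Lrrfip1 and Antxr1. Mtln, Tmem9b and Aph1b had no base covered by all 12 lists. The longest such stretch was 21 bp at Cth, 76 bp at Zfhx4 and 121 to 556 bp at the others. The best peaks compared may thus lie at different places in a region. Folds at the low end were small, such as 3.81 and 2.59 for Mtln in MEF and 2.71 and 2.66 for Tmem9b in ESC. Cth, which codes for cystathionine gamma-lyase, had ranks 8193 and 8108 in MEF, 2496, 3396 and 2650 in DAY3, 5364, 4962 and 3681 in DAY6, 4620 and 4233 in DAY9, and 2831 and 3103 in ESC. Its MEF libraries were near the bottom of the members and all others stood well above them. Zfhx4, which codes for a zinc finger homeobox factor, went the other way, with ranks 2487 and 2863 in MEF, 2054, 1924 and 2509 in DAY3, 8043, 7744 and 6971 in DAY6, 8125 and 8036 in DAY9, and 8146 and 8232 in ESC. Lrrfip1 had ranks 2828 and 3301 in MEF, 3721, 3908 and 2349 in DAY3, 4698, 3882 and 5330 in DAY6, 1204 and 1160 in DAY9, and 8135 and 8224 in ESC, so that it stood highest in DAY9 and lowest in ESC. Among gene-list members, Vim, the intermediate filament gene of mesenchymal cells, stood at 1029 and 1134 in MEF and 7549 and 7177 in ESC. Twist1 had ranks 3940 and 5101 in MEF and 8242 and 8229 in DAY9, the first of these the lowest rank of all.

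KLF4 peaks were frequent in the shared regions in every KLF4 library. A KLF4 peak overlapped 81.8% and 60.8% of the members in DAY3, 82.5% and 57.0% in DAY6, 63.2% and 67.9% in DAY9, 56.2% and 73.9% in ESC, and 67.5% in both ESC_2I libraries. In the other merged regions the share was 5.72% to 11%, and in regions found in 11 lists 41.9% to 69.2%. Members were wider, so KLF4 peak midpoints were also counted per Mb. There were 220 to 341 per Mb in members and 59.0 to 99.9 in other regions. The log2 ratio was above 0 in 10 of 10 libraries, with a mean of 1.87 ± 0.216 (SD, n = 10; exact two-sided permutation test by sign flips, p = 0.00195, the smallest possible; adjusted p = 0.00977 over 5 tests). Against regions with a peak in 11 lists the mean log2 ratio was 0.290, against other regions with a gene start, when only regions with one were compared, 0.531, and among regions without a gene start 1.81. Each of these had an exact permutation p of 0.00195. Libraries of a batch were treated as independent. Without the 5 libraries of batch EA-3702 the mean log2 ratio against all other regions was 1.82. Its exact permutation p was then 0.0625, the smallest that 5 libraries allow.

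No difference between stages in the share of members with KLF4 passed the test, and batches differed by more than the stage means did. The stage means were 71.3% ± 14.8 in DAY3, 69.8% ± 18 in DAY6, 65.6% ± 3.32 in DAY9, 65.1% ± 12.5 in ESC and 67.5% ± 0 in ESC_2I (SD, n = 2 each). The between-stage F was 0.0997 (113400 assignments of the stage labels in an exact permutation test; p = 0.981, adjusted p = 0.981, the smallest possible p being 0.00106). From DAY3 to DAY9 the slope was -0.956 percentage points per day (90 assignments of the days in an exact two-sided permutation test; p = 0.622, adjusted p = 0.981, the smallest possible p being 0.0222). Within DAY3 the libraries of batches EA-3702 and DG-4040 lay 21.0 percentage points apart and within DAY6 25.5, more than the difference between any 2 stage means. Within batch EA-3702 the share was 81.8% in DAY3, 82.5% in DAY6, 63.2% and 67.9% in DAY9 and 67.5% in ESC_2I, and within DG-4040 it was 60.8% in DAY3 and 57.0% in DAY6. Leaving out 1 library moved this slope to between -2.51 and 0.479, with the upper value reached without the DAY3 library of EA-3702. With batch as a term, over the 7 libraries of EA-3702 and DG-4040, the stage F was 12.9 (exact permutation p = 0.167, smallest possible 0.0167 over 120 assignments). The slope with that term was -2.71 points per day over 6 libraries (exact permutation p = 0.125, smallest possible 0.0417 over 24). Inside EA-3702 both DAY9 libraries and the ESC_2I library thus lay below DAY3 and DAY6, a difference that did not pass the test. ESC had no library in either batch, so ESC and batch cannot be told apart.

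KLF4 peaks inside the members had a higher score within their list than those in other regions, but this rested mostly on 1 batch. The median percentile of the score was 4.15 points higher in members (SD 4.52, n = 10), above 0 in 7 libraries and exactly 0 in 3, where many peaks share a score (exact permutation test by sign flips, p = 0.0156, adjusted p = 0.0391). The 5 libraries of batch EA-3702 had differences of 6.78 in DAY3, 13.9 in DAY6, 4.30 and 6.00 in DAY9 and 7.33 in ESC_2I. Without them the mean difference was 0.628 (exact permutation p = 0.500 over 5 libraries). Of these 5 differences 3 were exactly 0, so that test could give no p below 0.500 and cannot decide.

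KLF4 was not seen to differ between members with and without a gene start when the whole region was counted. The share with KLF4 in members with a start minus that in members without was -0.546 percentage points (SD 6.74, n = 10), below 0 in 7 libraries and above 0 in 3 (exact permutation test by sign flips, p = 0.805, adjusted p = 0.981). Both ESC_2I libraries had a higher share at starts, by 11.4 and 6.46 points, as had the DAY6 library of EA-3702, by 5.05, whereas the difference in the DG-4040 libraries was -8.85 in DAY3 and -10.3 in DAY6. When only the stretch covered by all 12 lists was searched for KLF4, the mean difference was 9.42 points in favour of gene starts (exact permutation p = 0.00195), higher at starts where the whole region gave the opposite sign. Members more than 2.5 kb from a start were wider, with a median of 3586 bp against 2573 bp for those with a start, and 79.6% against 96.3% had a base covered in all 12 lists. Members without such a base were left out of the comparison within the common stretch, which thus covered 7738 members. The cause of the difference of 9.42 points was not tested.

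A KLF4 peak in all 10 lists was found in 2629 members (31.9%), where 2.44% of all merged regions, 1.02% of the others and 17.2% of those in 11 lists had this. No KLF4 peak in any list was found in 418 members (5.07%), against 74.0% of all merged regions. Without batch EA-3702 5 lists remained, and with fewer lists a count of regions without a peak cannot fall. The number of members without a KLF4 peak was then 1067 (12.9%). The share of the other regions without one went from 77.3% to 82.3%. Among the 3356 members whose libraries of each stage all agreed in having or lacking a peak, 78.3% had KLF4 in all 5 stages, 12.5% in none, and 44 (1.31%) in DAY3, DAY6 and DAY9 but neither ESC condition. In the other regions decided in this way the shares were 1.24%, 93.7% and 0.860%. Constant KLF4 went with width, from 17.8% of the 2061 narrowest members to 50.1% of the 2060 widest, and with acetylation order, from 44.4% of the 2061 highest to 21.6% of the 2060 lowest. The highest were themselves wider (median 3269 bp against 2270 bp).

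The gene lists in members differed in how often KLF4 was present in every list. A KLF4 peak was in all 10 lists at 24 of 28 cytoskeleton genes in members (85.7%), such as Actb, Actg1, Tln1 and Vcl, at 13 of 15 Klf and Sp factor genes (86.7%), at 5 of 5 pluripotency genes, at 5 of 6 Hox genes (83.3%) and at 4 of 8 fibroblast genes. Klf2, Klf4 and Klf5 count in both the Klf and the pluripotency list, and the regions of the pluripotency, fibroblast and Hox genes were wide, at medians of 9357, 7498 and 18522 bp. It was there at 15 of 26 genes of the Myc network and cell cycle, 12 of 22 immediate early genes, 12 of 28 chaperone genes and 13 of 32 translation factors. Low counts were found for cytosolic ribosome genes (9 of 75), the respiratory chain (4 of 39) and the proteasome (1 of 27, Psma7), below the 31.9% of all members. The proteasome regions were narrower, at a median of 2397 bp, than the cytoskeleton regions at 5212 bp. Respiratory chain regions were narrow as well, at 2095 bp, and Klf and Sp regions wide, at 6398 bp. Ribosome regions were at 3833 bp and those of chaperones and translation factors at 3413 and 3352 bp, with KLF4 in all 10 lists at 12%, 42.9% and 40.6%. The part of width in these differences between lists was not tested. Klf6 and Klf7 were the exceptions among Klf and Sp genes, with KLF4 in 3 and 8 lists. Hoxb2 had none and Twist1 had 4. The Klf4 gene itself was ranked 41 and 164 in MEF and between 926 and 3113 in the libraries of the other stages, with KLF4 in all 10 lists.

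More than 2.5 kb from any protein-coding start lay 1121 members (13.6%). Of these 642 were inside the span of a gene and 479 outside, and 208 held the start of a listed long noncoding RNA. In the KLF4 libraries 57.0% to 87.2% of the 1121 had a KLF4 peak. Outside gene spans and without such a noncoding start were 350 members, and 97 of them (27.7%) had KLF4 in all 10 lists, close to the 31.9% of all members.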

How the data were processed

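H3K27ac and KLF4 were mapped by chromatin immunoprecipitation and sequencing. The 22 deposited peak lists used here have no header, and mm10, cutadapt 1.8.1, Bowtie2 2.2.5, deepTools 2.3.6 and MACS2 2.1.1 are named, without roles or order, in the submitters' processing notes. Each list has 10 columns in the layout that MACS2 writes. The score of a peak, as deposited by the authors, is the whole part of 10 times its −log10 p, except in 2 peaks of one ESC list and 1 of the other. The deposited fold column is the authors' enrichment of a peak. The deposited −log10 p and −log10 q columns are the authors' values per peak, and the q column served as an alternative limit of 0.01. Read depth is unknown, the 13 input libraries were not analysed here, and the lists hold 17500 to 88364 peaks (H3K27ac) and 21157 to 34682 (KLF4).

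Peaks on chromosomes 1 to 19 and X (17493 to 88347 and 21129 to 34640 per list) were merged at 1 bp overlap with Python 3.11.15, numpy 2.4.6 and pandas 2.3.3. A region was scored by its best peak, as a rank among members or a percentile within its list. Starts and promoter windows (250 bases before to 50 after) were from RefSeq GRCm38.p6. For 4354 genes without a promoter entry either end of the gene stood for the start. KLF4 was tested over libraries by exact permutation (scipy 1.17.1), with Benjamini-Hochberg adjustment over 5 tests. The code was tested on simulated data. Named members were the 10 highest by mean percentile, the 5 with the longest common stretch, the 6 largest rises and falls from MEF to ESC, the highest away from starts, the 4 highest with KLF4 in all or no lists, and the 2 highest and the lowest of each gene list. Some of these are not reported here. Other genes named were chosen after their values were seen. The members and the lists were chosen with earlier results of these data known.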

Additional observations from a re-analysis of the deposited data

How the results depend on the processing

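The number of shared regions was 5252 with the best 17493 peaks of each list and 5420 with the top 50% of each, against 6612 with q of at most 0.01, 7738 with a common base and 9611 with 2 or more lists of each stage. Leaving out 1 acetylation library gave 8247 to 8797. The share with a gene start was 85.5% within 1 kb, 86.4% within 2.5 kb and 70.6% with only genes of known strand.

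The KLF4 slope over days was 0.438 with the same number of top KLF4 peaks and ran from -2.51 to 0.479 over libraries left out, and the between-stage F from 0.0629 to 0.649 (exact permutation p from 0.67 to 0.985). The difference between members with and without a gene start was 9.42 within the common stretch, 2.37 in members of middle width, 1.71 without batch DG-4040, -3.81 with KLF4 q of at most 0.01, -2.77 without EA-3702, -1.90 with the same number of top peaks, and -1.88 to 0.537 over libraries left out. The log2 density ratio was 1.82 without batch EA-3702 (exact permutation p = 0.0625, the smallest that 5 libraries allow). It was 2.62 within the common stretch and 1.82 to 1.9 over libraries left out. The rank difference was 0.628 without EA-3702 (exact permutation p = 0.500, the smallest that these differences allow). It was 6.86 within the common stretch, 2.57 against regions in 11 lists, and 3.06 to 4.61 over libraries left out. The causes were not tested. With batch as a replicate block, an alternative chosen after seeing the data, the stage F was 12.9 (exact permutation p = 0.167) and the slope -2.71 (exact permutation p = 0.125), and neither changed a call.

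Unknown read depth limits every comparison of coverage or fold between stages.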
